A study of Mus musculus with 12 samples.

Results

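The genes described here are the haemoglobin genes of the mouse together with a chaperone and a regulator of them. The set was given by name and not by any measured value: the adult alpha globins Hba-a1 and Hba-a2, the adult beta globins Hbb-bs and Hbb-bt, the embryonic globins Hba-x, Hbb-bh1 and Hbb-y, the alpha globin chaperone Ahsp and the transcription factor Bcl11a. These 9 genes were looked up among the 37620 genes of the count table, and 8 were found. Ahsp was not analysed here. Their transcripts were counted by RNA-seq in bone endothelial cells (BECs), the cells that line bone capillaries, which were purified by endomucin, a surface protein of these capillaries, and described as freshly taken from the tibia. The mice were of the inbred strain c57/Bl6, with no genetic change or treatment. Females and males of 2 weeks and of 65 weeks made 4 groups of 3 libraries, 12 in all.

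Haemoglobin is a tetramer of alpha-type and beta-type globin chains, each carrying a heme, and it fills the red cell. The genes lie in an alpha and a beta cluster, and during development red cell precursors switch from the embryonic genes of each cluster to the adult ones. Bcl11a is a zinc finger repressor that silences embryonic beta-type globin genes in adult erythroid cells, and it is also required for the development of B lymphocytes. Endothelial cells are not known as a main source of globin, so markers of erythroid and other blood cells are given beside the globin values.

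The alpha genes lie in order on chromosome 11 of the mouse genome (GRCm39, plus strand): Hba-x (ENSMUSG00000055609) at chr11:32226400-32228116, Hba-a1 (ENSMUSG00000069919) at chr11:32233186-32234504 and Hba-a2 (ENSMUSG00000069917) at chr11:32246168-32247320. Bcl11a (ENSMUSG00000000861) is on the same chromosome at chr11:24027941-24124123. The beta genes lie on the minus strand of chromosome 7: Hbb-bt (ENSMUSG00000073940) at chr7:103461727-103465047, Hbb-bs (ENSMUSG00000052305) at chr7:103475730-103482989, Hbb-bh1 (ENSMUSG00000052217) at chr7:103490844-103492371 and Hbb-y (ENSMUSG00000052187) at chr7:103500956-103502423. All are annotated as protein-coding genes, and each of the 7 globin transcripts has 3 exons.

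The adult genes come in near-identical copies, which decides how far their counts can be told apart. The coding sequences of Hba-a1 and Hba-a2 are 429 bases long and 99.8% identical, with the sole difference C381T (Hba-a1 base, position from the A of the start codon, Hba-a2 base). Those of Hbb-bs and Hbb-bt are 444 bases long and 99.8% identical, with the sole difference C417T (Hbb-bs base first). The stretches around these bases are shown because they are all that separates the copies within the coding sequence, with the differing base in capitals. They cover coding bases 351 to 410 of the alpha pair and 385 to 444 of the beta pair, from GENCODE M39 transcripts on GRCm39.
Hba-a1: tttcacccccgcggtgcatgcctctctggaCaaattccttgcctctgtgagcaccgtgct
Hba-a2: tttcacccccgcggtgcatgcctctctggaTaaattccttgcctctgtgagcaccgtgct
Hbb-bs: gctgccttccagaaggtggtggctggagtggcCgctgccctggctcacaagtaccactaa
Hbb-bt: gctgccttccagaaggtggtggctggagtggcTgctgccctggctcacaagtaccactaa

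Of all windows of 100 bases, the read length, 70.1% of the Hba-a1 transcript and 81.8% of the Hba-a2 transcript also occurred in another globin transcript, as did 58.6% of Hbb-bs and 54.7% of Hbb-bt. The remaining windows span the single coding difference or bases outside the coding sequence. These shares are for single reads. The reads were paired, and the share of pairs in which both reads fit both copies was not computed. How reads that fit both copies were assigned is not stated, so the split within each pair is uncertain, while the sum of a pair does not depend on that split, though it misses such reads if they were dropped. The embryonic transcripts shared no such window with another globin. Their coding sequences were 62.0% identical between Hba-x and Hba-a1, 74.1% between Hbb-bh1 and Hbb-bs, 74.3% between Hbb-y and Hbb-bs and 76.4% between Hbb-bh1 and Hbb-y.

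The 150 bases upstream of the RefSeq start of the adult and embryonic genes are shown because transcription of the genes that are switched starts from them. They were taken from the RefSeq promoter table of GRCm38.p6 and located by an exact match in GRCm39, and they are written 5′ to 3′ on the strand of the gene. The RefSeq starts differ from the edges of the gene spans given above. The windows of Hba-a1, Hba-x, Hbb-bs and Hbb-bt lie inside those spans, and that of Hbb-y crosses the edge. Capitals mark 3 motifs searched on both strands: CACCC, the core of the element bound by Klf1, CCAAT, and TGACCA, the core of the element bound by Bcl11a. AGATAA, 1 form of the GATA element, was searched too and was in none of the windows, and the other forms were not searched.
Hba-a1, chr11:32233522-32233671, plus strand: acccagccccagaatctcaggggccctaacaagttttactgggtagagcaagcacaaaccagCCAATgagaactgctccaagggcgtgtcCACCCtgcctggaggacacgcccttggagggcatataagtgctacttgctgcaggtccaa
Hba-x, chr11:32226450-32226599, plus strand: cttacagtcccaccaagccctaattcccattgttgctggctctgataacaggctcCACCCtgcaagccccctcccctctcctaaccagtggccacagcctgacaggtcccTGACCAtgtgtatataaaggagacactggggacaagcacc
Hbb-bs, chr7:103477136-103477285, minus strand: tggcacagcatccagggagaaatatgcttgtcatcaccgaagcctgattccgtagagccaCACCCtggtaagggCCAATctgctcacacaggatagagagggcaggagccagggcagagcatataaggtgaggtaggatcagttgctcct
Hbb-bt, chr7:103463131-103463280, minus strand: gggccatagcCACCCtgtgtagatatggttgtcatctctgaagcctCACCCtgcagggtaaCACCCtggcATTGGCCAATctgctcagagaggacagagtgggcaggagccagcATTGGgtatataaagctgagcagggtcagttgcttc
Hbb-y, chr7:103502415-103502564, minus strand: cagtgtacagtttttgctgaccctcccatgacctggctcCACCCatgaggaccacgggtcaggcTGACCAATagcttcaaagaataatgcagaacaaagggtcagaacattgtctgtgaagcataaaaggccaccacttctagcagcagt

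The promoter of Hba-a2 holds the same sequence as that of Hba-a1, shifted with its listed start. All 5 windows held CACCC, which 36.9% of 27025 promoters of this length hold. CCAAT was in the windows of Hba-a1, Hbb-bs, Hbb-bt and Hbb-y and in 25.3% of all promoters. TGACCA was in the windows of the embryonic genes Hba-x and Hbb-y and in 7.08% of all promoters, and it was in neither adult beta promoter. In Hbb-y, TGACCA at -86 overlaps CCAAT at -83, counted from the start. In Hbb-bt, CCAAT occurred 3 times, and an inverted copy touches the forward one. AGATAA is held by 5.76% of all promoters. The promoter of Bcl11a, chr11:24030545-24030694, held CACCC at -65 and none of the others. A match is a description of letters and not of binding.

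Depth was high and similar within a group: total counts ran from 35012947 to 44569600 in the 2-week libraries and from 26044743 to 34088694 in the 65-week libraries. A pair of libraries held a trace of transcripts of the other sex. Male 65-week replicate 3 held 117 counts of Xist, or 3.35% of what age-matched females held on average. Female 2-week replicate 3 held 25 counts of 4 Y-linked genes, or 0.471% of the mean of 2-week males. Calls of named genes that change without either library are given with and without it, as are the larger changes of list counts. The defining genes of endothelium were well below their young level at 65 weeks: the summed level of 13 of them (Cdh5, Plvap and others) ran from 3322 to 6101 CPM (a gene's counts in every 1000000 counts of its library) at 2 weeks and from 222 to 322 CPM at 65 weeks. No gene of the list was at 0 in any library. In bulk samples such as these, fewer cells of a type and less RNA per cell cannot be told apart. Nothing in the labels says that the 3 libraries of a group came from separate animals, so p-values measure only the spread between these libraries, which may be technical.

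Globin transcripts were among the most abundant RNAs of these libraries at both ages and in both sexes. The 7 globins together made up 2.47% to 4.79% of all counts of a library. Hbb-bs ranked 1 of 37620 genes by mean CPM, Hba-a1 ranked 3, Hbb-bt 10 and Hba-a2 15. Bcl11a ranked 5469. The embryonic genes ranked 15067 (Hbb-y), 15207 (Hbb-bh1) and 16318 (Hba-x).

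Hba-a1, 1 of the adult alpha genes, was measured at 8201, 7268 and 12543 CPM in 2-week females and at 9617, 9446 and 7654 CPM in 65-week females (replicates 1, 2 and 3). In males it was measured at 5790, 8901 and 7078 CPM at 2 weeks and at 8927, 4581 and 5060 CPM at 65 weeks. The ages overlapped in both sexes, female 2-week replicate 3 stood highest, and male 65-week replicates 2 and 3 stood lowest. The group means were 9337 ± 2815, 8905 ± 1087, 7256 ± 1563 and 6189 ± 2383 CPM in the same order (SD, n = 3 each).

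Hba-a2, the other adult alpha copy, was measured at 3248, 2966 and 4168 CPM in 2-week females and at 4428, 4538 and 3952 CPM in 65-week females. In males it was measured at 1886, 3012 and 2800 CPM at 2 weeks and at 3590, 4385 and 3025 CPM at 65 weeks. The ages did not overlap in males, though the lowest 65-week value of 3025 CPM lay just above the highest 2-week value of 3012 CPM. How many of all genes separate groups in this way was not counted, here or below. In females the ages overlapped through 2-week replicate 3 alone. The group means were 3461 ± 628 and 4306 ± 311 CPM in females and 2566 ± 599 and 3667 ± 683 CPM in males (2 and 65 weeks, SD, n = 3 each).

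Hbb-bs, the adult beta gene with the higher counts, was measured at 18749, 14911 and 26097 CPM in 2-week females and at 18470, 19023 and 16665 CPM in 65-week females. In males it was measured at 14600, 19279 and 16355 CPM at 2 weeks and at 19150, 18601 and 13029 CPM at 65 weeks. All 4 groups overlapped, with female 2-week replicate 3 highest and male 65-week replicate 3 lowest. The group means were 19919 ± 5684 and 18053 ± 1233 CPM in females and 16744 ± 2364 and 16927 ± 3387 CPM in males.

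Hbb-bt, its neighbour in the beta cluster, was measured at 4194, 3437 and 5054 CPM in 2-week females and at 4693, 5180 and 4859 CPM in 65-week females. In males it was measured at 3052, 4726 and 3400 CPM at 2 weeks and at 5089, 5101 and 3546 CPM at 65 weeks. The ages overlapped in both sexes, through female 2-week replicate 3 and through male 65-week replicate 3. The group means were 4228 ± 809 and 4911 ± 248 CPM in females and 3726 ± 883 and 4579 ± 894 CPM in males.

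**Figure D1:**
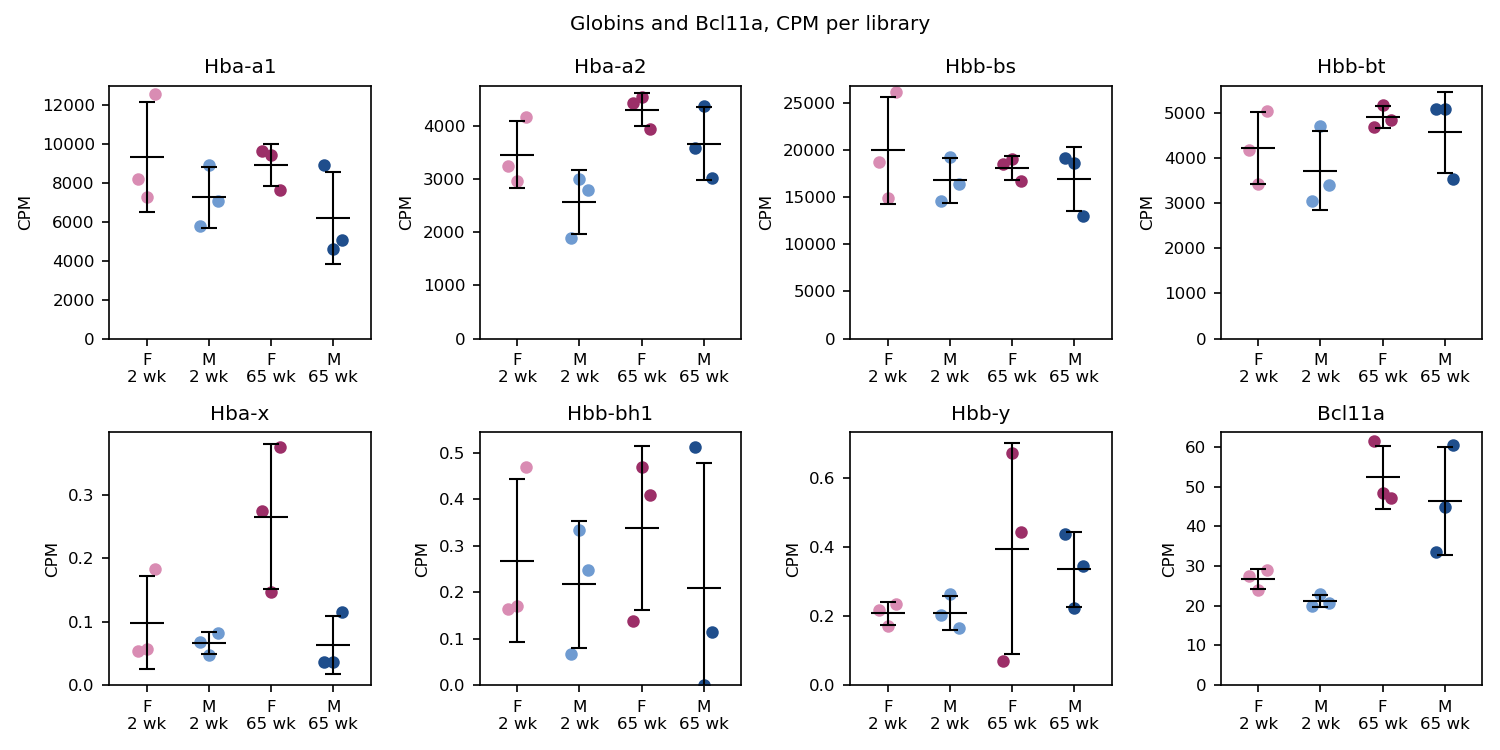
CPM of 7 globins and Bcl11a in each of the 12 libraries, by sex (F, M) and age (2 and 65 weeks). Points are libraries, long bars are group means and error bars are SD (n = 3), and each panel has its own axis from 0. The adult globins lie at 1886 CPM or above in every library, and the embryonic globins stay under 1 CPM. Among the genes shown, only Bcl11a has all its 65-week libraries above the 2-week libraries of both sexes, a separation not counted over all genes.

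Compared per length of the whole transcript, the order of the adult genes by their counts was Hbb-bs, Hba-a1 and then Hbb-bt with Hba-a2. The levels per kilobase of transcript ran from 19621 to 39303 CPM for Hbb-bs and from 6208 to 16995 CPM for Hba-a1, ranges that did not overlap. Those of Hbb-bt (4335 to 7358 CPM) and Hba-a2 (2915 to 7014 CPM) overlapped each other, and both overlapped that of Hba-a1. The ratio of adult alpha to adult beta counts per kilobase stayed between 0.368 and 0.576. It was 0.472, 0.528 and 0.504 in 2-week females and 0.576, 0.550 and 0.515 in 65-week females. It was 0.409, 0.468 and 0.473 in 2-week males and 0.489, 0.368 and 0.468 in 65-week males. Within each sex the ages overlapped, while at 65 weeks all 3 male libraries lay below all 3 female ones. The ratio is a description and was not tested. Windows shared with another globin made up 70.1% of Hba-a1, 81.8% of Hba-a2, 58.6% of Hbb-bs and 54.7% of Hbb-bt, counted for single reads and not for read pairs. If shared reads were dropped, the levels per kilobase are too low by unequal amounts. The order and the size of the ratio are therefore uncertain.

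The share of the less abundant copy of each pair was higher at 65 weeks. Hbb-bt made up 18.3%, 18.7% and 16.2% of the adult beta counts in 2-week females and 20.3%, 21.4% and 22.6% in 65-week females. In males it made up 17.3%, 19.7% and 17.2% at 2 weeks and 21.0%, 21.5% and 21.4% at 65 weeks, so the ages did not overlap in either sex. Hba-a2 made up 28.4%, 29.0% and 24.9% of the adult alpha counts in 2-week females and 31.5%, 32.5% and 34.1% in 65-week females. In males its share was 24.6%, 25.3% and 28.4% at 2 weeks and 28.7%, 48.9% and 37.4% at 65 weeks. The male ages did not overlap either, but male 65-week replicate 1 was close to the young libraries and replicate 2 stood far above all others. In that replicate Hba-a1 was at its lowest of all libraries while Hba-a2 was among its 3 highest. Since reads common to the copies had to be assigned to 1 of them or dropped, and the part of this in the shares was not tested, these proportions are given without a test.

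**Figure D2:**
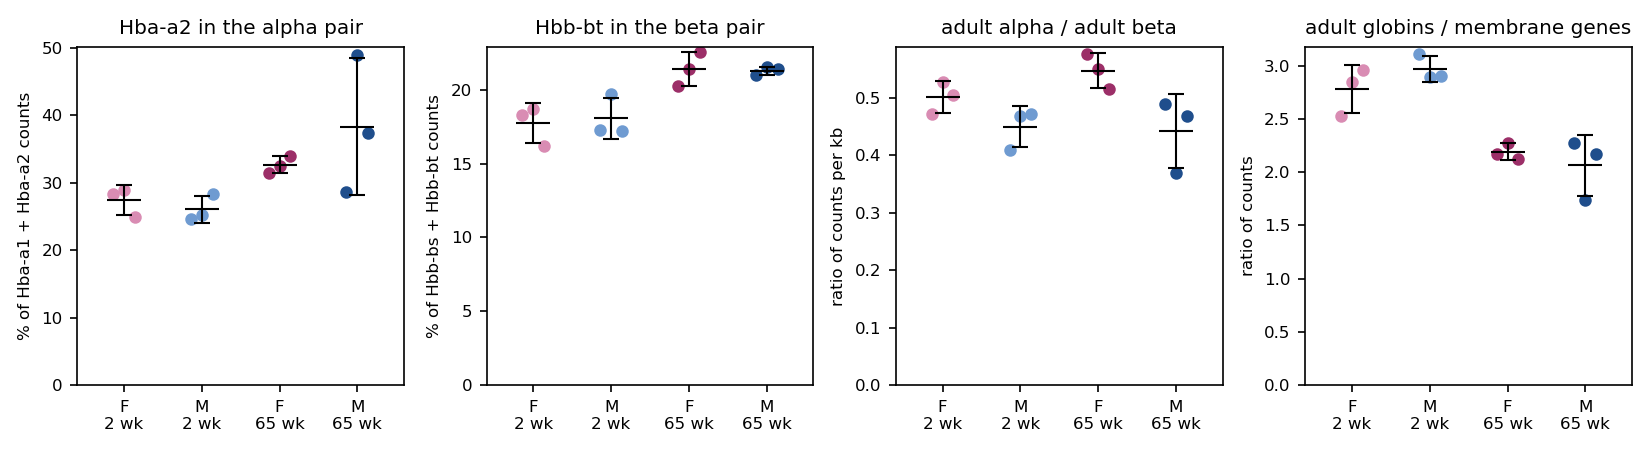
Proportions of globin counts in each library: the share of Hba-a2 in the alpha pair and of Hbb-bt in the beta pair (percent of counts), the ratio of adult alpha to adult beta counts per kilobase, and the ratio of the 4 adult globins to 18 red cell membrane genes. Points are libraries, bars are means ± SD (n = 3), and all axes start at 0. Both copy shares are higher at 65 weeks in each sex, and the ratio to the membrane genes is lower.

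The embryonic globins were near the limit of what these libraries can show. Hba-x, the embryonic zeta-type alpha chain, had 48 counts in the 12 libraries, from 1 to 11 per library, and 4 libraries held more than 3 counts. Hbb-bh1, an embryonic beta-type chain, had 105 counts, from 0 to 18 per library. Hbb-y, the embryonic epsilon-type chain, had 114 counts, from 2 to 23. The only library at 0 was male 65-week replicate 2 for Hbb-bh1, where a count of 0 allows up to 3 counts.

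Set against the adult genes these traces were small. Scaled to the adult beta genes, Hbb-bh1 and Hbb-y together stood at 8.92 to 47.3 counts in every 1000000 adult beta counts. Hba-x stood at 2.92 to 32.3 counts in every 1000000 adult alpha counts. Beta-type traces were highest in female 65-week replicate 2 (16 counts of Hbb-bh1 and 23 of Hbb-y) and lowest in female 65-week replicate 1 (4 and 2 counts), so the spread within that group covered nearly the whole range. Hba-x had 8, 5 and 11 counts in 65-week females and 1, 1 and 3 in 65-week males, which did not overlap in CPM. Scaled to 1000000 adult alpha counts the sexes did overlap, at 10.49 to 32.34 in 65-week females and 2.924 to 14.25 in 65-week males. At 2 weeks Hba-x had 2, 2 and 7 counts in females and 3, 2 and 3 in males. With no low count filter none of the 3 genes passed the test in any comparison by edgeR, where the lowest adjusted p was 0.182, for Hba-x by age in females (log2 fold change 1.47 ± 0.81, SE). Without female 65-week replicate 1, Hbb-y passed the filter and was called higher by age in females (1.55 ± 0.46, adjusted p = 0.0253, edgeR), on counts of 6 to 23 per library, and no other alternative called an embryonic globin. Whether so few counts come from embryonic transcripts or from adult reads placed on them was not tested.

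The first question was whether these genes changed between 2 and 65 weeks. In females 6 of the 8 genes passed the low count filter, and 2 of them, Hba-a2 and Bcl11a, were higher at 65 weeks, where 30.2% of all 15120 genes tested were called higher and 59.7% were called in either direction. A call here is an adjusted p under 0.05 in edgeR's quasi-likelihood test, and errors of fold changes are SE. In males 5 genes passed the filter, and the same 2 were higher, where 27.0% of 14959 genes were called higher and 55.5% in either direction. No member was called lower in either sex, where 29.5% of genes in females and 28.5% in males were. Read against these shares, 2 of 6 and 2 of 5 are close to the background.

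The main adult genes changed less with age than most genes of the table. The log2 fold change of Hbb-bs by age was -0.013 ± 0.20 in females (adjusted p = 0.96, edgeR) and 0.14 ± 0.22 in males (adjusted p = 0.607, edgeR). Of all genes tested, 1.53% in females and 15.0% in males had a smaller absolute change. That of Hba-a1 was 0.061 ± 0.21 in females (adjusted p = 0.821, edgeR) and -0.10 ± 0.30 in males (adjusted p = 0.788, edgeR). Here 7.53% of genes in females and 10.9% in males had a smaller absolute change. The errors do not exclude small changes of either gene.

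The minor copies lay higher at 65 weeks in both sexes, but less firmly than Bcl11a. Hba-a2 rose by 0.45 ± 0.14 on the log2 scale in females (adjusted p = 0.0266, edgeR) and by 0.64 ± 0.22 in males (adjusted p = 0.0422, edgeR). The call was lost in females without 2-week replicate 1 or 2 or 65-week replicate 1 or 2, with adjusted p from 0.0579 to 0.0874 (edgeR). It was lost in males without 2-week replicate 1 or 3 or 65-week replicate 1 or 2, with adjusted p from 0.0805 to 0.135 (edgeR). Without female 2-week replicate 3 the change in females was 0.54 (adjusted p = 0.00184, edgeR), and without male 65-week replicate 3 that in males was 0.75 (adjusted p = 0.0195, edgeR). Hbb-bt had log2 fold changes of 0.35 ± 0.15 in females (adjusted p = 0.0738, edgeR) and 0.42 ± 0.23 in males (adjusted p = 0.158, edgeR). It passed the threshold without female 2-week replicate 3 (0.44, adjusted p = 0.00914, edgeR) and without male 65-week replicate 3 (0.57, adjusted p = 0.0496, edgeR).

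When the copies of a pair were summed before the fit, which does not depend on how shared reads were split, neither adult chain was called. Summed alpha globin changed by 0.18 ± 0.19 in females (adjusted p = 0.458, edgeR) and by 0.13 ± 0.24 in males (adjusted p = 0.669, edgeR). Summed beta globin changed by 0.057 ± 0.19 in females (adjusted p = 0.813, edgeR) and by 0.20 ± 0.22 in males (adjusted p = 0.478, edgeR).

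Bcl11a was measured at 27.5, 23.8 and 28.9 CPM in 2-week females and at 61.5, 48.3 and 47.2 CPM in 65-week females. In males it was measured at 19.9, 22.8 and 20.7 CPM at 2 weeks and at 33.6, 44.9 and 60.5 CPM at 65 weeks. Every 65-week library lay above every 2-week library, and male 65-week replicate 3, with its trace of Xist, was the highest of the males. The share of all genes with such a separation was not counted, and 59.7% in females and 55.5% in males were called by age. The log2 fold change of Bcl11a by age was 1.10 ± 0.13 in females (adjusted p = 0.000205, edgeR) and 1.24 ± 0.18 in males (adjusted p = 0.00091, edgeR). Without male 65-week replicate 3 it was 1.01 in males (adjusted p = 0.000488, edgeR). Of all genes tested, 72.0% in females and 72.7% in males had a smaller absolute change.

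**Figure D3:**
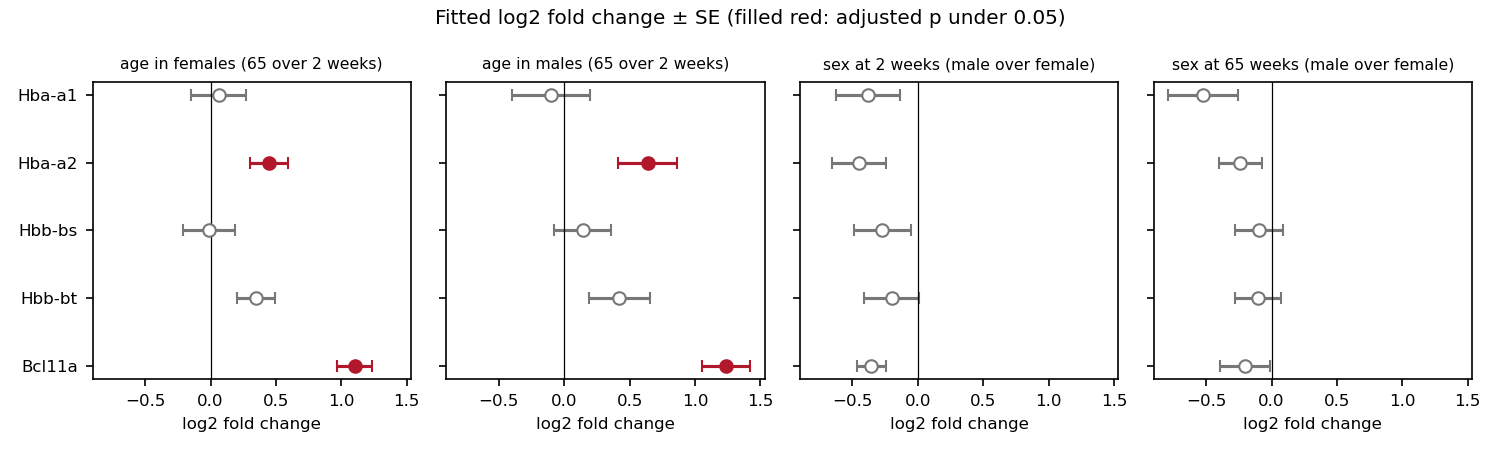
Fitted log2 fold change (points) ± SE (bars) of the 4 adult globins and Bcl11a by age in each sex and by sex at each age, with red filled points for an adjusted p under 0.05 by edgeR. Hba-a2 and Bcl11a are filled in both age comparisons, Hbb-bs and Hba-a1 lie near 0 there, and all points of the sex comparisons are open and left of 0.

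Between the sexes no member was called at either age. At 2 weeks 0 of 5 genes tested passed by edgeR, where 0.0332% of 15081 genes were called. At 65 weeks 0 of 7 passed, where 0.042% of 14287 genes were called. At an unadjusted p under 0.05 there was 1 at 2 weeks (Bcl11a), where 17.8% of all genes were, and 0 at 65 weeks, where 10.4% were. DESeq2 called 0 members at both ages, where it called 2.96% of all genes at 2 weeks and 2.79% at 65 weeks. All members tested lay lower in males in both comparisons. At 2 weeks the log2 fold changes ran from -0.45 (Hba-a2) to -0.20 (Hbb-bt). At 65 weeks they ran from -0.678 ± 1.065 (Hbb-bh1) to -0.097 (Hbb-bs), with Hbb-y at -0.258 ± 0.789. Hbb-bh1 and Hbb-y are near the floor of these libraries. The median of all genes tested was 0.011 at 2 weeks and -0.002 at 65 weeks, and the share lower in males was not counted. Without female 2-week replicate 3 the young differences of Hba-a1, Hbb-bs and Hbb-bt shrank to -0.099, -0.017 and -0.041.

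Bcl11a was lower in each of the 3 young males than in each of the 3 young females, with a log2 fold change of -0.36 ± 0.11 that missed the threshold (adjusted p = 0.227, edgeR). At 65 weeks it was -0.20 ± 0.19 (adjusted p = 0.794, edgeR). The largest difference of an adult globin was that of Hba-a1 at 65 weeks, -0.52 ± 0.27 (adjusted p = 0.571, edgeR). Without male 65-week replicate 3 the differences of Hbb-bs and Hbb-bt at 65 weeks turned to 0.082 and 0.071, so their direction rested on that library. In the interaction of sex and age 0 of 7 members passed by edgeR, where 0.00635% of 15747 genes were called, and there were 0 at an unadjusted p under 0.05, where 11.9% of genes were, and 0 by DESeq2, where 2.5% were. The interaction terms ran from -0.37 ± 1.31 for Hbb-bh1 to 0.19 ± 0.27 for Hba-a2.

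To place the globins, the genes of red cell formation were counted from lists of known members. Their counts are read against all genes tested by age, of which 30.2% rose and 29.5% fell in females and 27.0% rose and 28.5% fell in males. Of 12 genes of heme synthesis and its mitochondrial transport, 4 rose in females and 5 in males and none fell, with medians of 0.37 and 0.54 against 0.006 and 0.008 for all genes tested. The risen count in females is near the 30.2% of all genes. Slc25a37, the mitochondrial iron importer of erythroid cells, rose by 0.74 ± 0.22 in females and 1.05 ± 0.25 in males (adjusted p = 0.0178 and 0.00789, edgeR), with an adjusted p of 0.0516 in females without 2-week replicate 1. Alas2, the erythroid enzyme that starts heme synthesis, rose by 0.43 ± 0.15 in females (adjusted p = 0.0411, edgeR) and stood at 0.50 ± 0.22 in males (adjusted p = 0.0953, edgeR). Its call in females was lost without 2-week replicate 1 or 2 or 65-week replicate 1 or 2, with adjusted p up to 0.122 (edgeR), and in males it was called without 65-week replicate 3 (adjusted p = 0.0109, edgeR). Fech, which inserts the iron, stood at 0.39 and 0.56 and passed in neither sex with all libraries. It passed without female 2-week replicate 3 (adjusted p = 0.0164, edgeR) and without male 65-week replicate 3 (adjusted p = 0.00783, edgeR). The count in females was 8 without 2-week replicate 3 and 2 without 2-week replicate 1, and without 2-week replicate 2 it was 3 with 2 that fell. That in males was 11 without 65-week replicate 3 and 3 without 2-week replicate 1 or 3 or 65-week replicate 1 or 2.

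Of 18 genes of the red cell membrane and its skeleton, 9 rose in females and 12 in males and none fell (medians 0.51 and 0.91), against 30.2% and 27.0% of all genes that rose. Sptb, the beta spectrin of the skeleton, rose by 0.91 ± 0.18 in females and 1.41 ± 0.25 in males (adjusted p = 0.00277 and 0.00201, edgeR). Slc4a1, the anion exchanger band 3, stood at 0.31 and 0.51 and passed in neither sex with all libraries. It passed without female 2-week replicate 3 (adjusted p = 0.0343, edgeR) and without male 65-week replicate 3 (adjusted p = 0.0264, edgeR). These counts depended on single libraries. In females 14 rose without 2-week replicate 3, 6 without 2-week replicate 1 or 65-week replicate 1, and 5 without 65-week replicate 2, and 1 fell without 2-week replicate 2. In males 17 rose without 65-week replicate 3, 7 without 2-week replicate 1, and 8 without 2-week replicate 3 or 65-week replicate 1 or 2.

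Of 16 genes of late red cell maturation 11 rose in each sex and none fell (medians 0.80 and 0.95), against 30.2% and 27.0% of all genes that rose. Leaving out 1 library gave 11 or 12 in females, with 1 that fell without 2-week replicate 2, and 10 to 14 in males. Car2, a carbonic anhydrase, rose by 0.74 ± 0.16 and 1.01 ± 0.24 (adjusted p = 0.00511 and 0.00877, edgeR). Tfrc, the transferrin receptor, stood at -0.087 and 0.007 and Prdx2, a red cell peroxiredoxin, at -0.041 and 0.24, and neither passed. Of 12 erythroid transcription factors and receptors, 5 rose and 1 fell in females and 6 rose in males, against 30.2% and 27.0% of all genes that rose. In females 3 rose without 2-week replicate 1, and 3 fell without 2-week replicate 2. In males 11 rose without 65-week replicate 3, and 4 without 2-week replicate 1 or 3 or 65-week replicate 1 or 2. Foxo3, a factor of erythroid maturation, rose by 1.03 ± 0.13 and 1.23 ± 0.17 (adjusted p = 0.00023 and 0.000633, edgeR), and Hemgn, an erythroid nuclear protein, by 0.57 and 0.81 (adjusted p = 0.029 and 0.0192, edgeR). The call of Hemgn was lost in females without 2-week replicate 1 or 65-week replicate 1 or 2 and in males without 2-week replicate 1 or 3 or 65-week replicate 1 or 2, with adjusted p up to 0.0742 and 0.0705 (edgeR). Tal1, a founding factor of the blood lineages, stood at 0.098 and 0.34 and did not pass with all libraries. It passed in males without 65-week replicate 3 (adjusted p = 0.029, edgeR).

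Adult globin counts were lower relative to the membrane genes at 65 weeks. The ratio of the 4 adult globins to the 18 membrane genes was 2.53, 2.85 and 2.96 in 2-week females and 2.17, 2.28 and 2.13 in 65-week females. It was 3.11, 2.90 and 2.90 in 2-week males and 2.28, 1.74 and 2.17 in 65-week males. All 65-week libraries lay below all 2-week libraries in both sexes, and this held for the adult alpha and the adult beta genes taken apart, with alpha ratios of 0.841 to 1.03 at 2 weeks and 0.477 to 0.835 at 65 weeks. The ratio was not tested, and by itself it shows an unequal change and not which of the genes moved. The mean summed level of the membrane genes was 13272 and 16488 CPM in females and 10249 and 15422 CPM in males (2 and 65 weeks). The 7 globins made up on average 3.695% and 3.618% of counts in females and 3.029% and 3.136% in males. Both measures overlapped between the ages in each sex.

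Among 28 further regulators of globin switching and partners of Bcl11a, 27 were tested, of which 8 rose and 10 fell in females and 11 rose and 7 fell in males (medians -0.041 and 0.014). These counts are near those of all genes, of which 30.2% rose and 29.5% fell in females and 27.0% rose and 28.5% fell in males, and the risen count in males was 6 without 2-week replicate 1 and 7 without 2-week replicate 3. Chd4, the remodelling enzyme of the NuRD complex that Bcl11a recruits, rose by 0.46 ± 0.07 and 0.68 ± 0.10 (adjusted p = 0.000811 and 0.000864, edgeR). Eif2ak1, the heme-regulated kinase that limits globin synthesis, rose by 0.45 and 0.70 (adjusted p = 0.0186 and 0.0174, edgeR), a call lost in females without 65-week replicate 2 and in males without 2-week replicate 1 or 3 or 65-week replicate 1 (adjusted p up to 0.063 and 0.0683). Dnmt1, the maintenance DNA methyltransferase, stood at 0.19 in females (adjusted p = 0.242, edgeR) and rose by 0.78 in males (adjusted p = 0.0147, edgeR, and 0.0598 without 2-week replicate 1). Rbbp4, a histone-binding NuRD subunit, stood at -0.041 and 0.014 and gave the medians of the list.

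Other regulators of the list were picked after their values had been seen. Zbtb7a, which silences fetal globin beside Bcl11a, rose by 0.91 ± 0.10 in females and 1.14 ± 0.11 in males (adjusted p = 0.000133 and 9.12e-05, edgeR). Sox6, a partner of Bcl11a in that silencing, rose by 0.76 ± 0.18 and 1.03 ± 0.23 (adjusted p = 0.00627 and 0.00727, edgeR). The RNA-binding proteins of the fetal programme stood out at the other end. Igf2bp3 held 715 to 890 counts in the 2-week libraries, 0 to 7 in 65-week females and 0 or 1 in 65-week males, which is 152-fold lower in females and at least 181-fold lower in males against a floor of 3 counts per library. Igf2bp1 held 23 to 48 counts at 2 weeks and 0 in all 6 libraries at 65 weeks, at least 10.5-fold lower in females and at least 8.28-fold lower in males. Lin28b held 2 to 10 counts at 2 weeks, 0 in 65-week females and 0 to 2 in 65-week males, which is too close to the floor for a fold.

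Of 9 other globin genes found in the table, 3 were tested by age in both sexes. Hbq1a, a theta-type gene of the alpha cluster, rose by 1.11 ± 0.38 in females and 1.27 ± 0.46 in males (adjusted p = 0.0352 and 0.0463, edgeR), from 0.907 and 0.926 to 1.80 and 2.04 CPM. Its call rested on single libraries: it was lost in females without 2-week replicate 1 or 2 or 65-week replicate 2 or 3 and in males without any library but 65-week replicate 3, with adjusted p up to 0.153 and 0.155 (edgeR). Its homologue Hbq1b stood at 0.18 and 0.53 and did not pass with all libraries, and these genes may share reads. Hbq1b passed in males without 65-week replicate 3 (adjusted p = 0.0171, edgeR). Cygb, cytoglobin of connective tissue cells, stood at -0.66 in females (adjusted p = 0.0583, edgeR, and 0.00428 without 65-week replicate 2) and fell by 0.91 on the log2 scale in males (adjusted p = 0.00499, edgeR).

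Most markers of B lineage cells rose with age as Bcl11a did. Of 13 B lineage genes 8 rose in each sex, while 1 fell in females and 3 in males (medians 1.53 and 1.29), against 30.2% and 27.0% of all genes that rose and 29.5% and 28.5% that fell. Their summed level ran from 305 to 423 CPM at 2 weeks, from 959 to 1371 CPM in 65-week females and from 422 to 1679 CPM in 65-week males, with male 65-week replicate 3 highest. In each sex 5 of the 13 genes lay below 0, the lowest at a log2 fold change of -2.54 in females and -2.63 in males. Cd79a and Cd79b, the signalling chains of the B cell receptor, rose by 1.91 and 1.53 in females and by 2.00 and 1.29 in males, with adjusted p from 2.55e-05 to 0.0277 (edgeR). In females 3 fell without 65-week replicate 1 and 2 without 2-week replicate 3. The risen count in males was 5 and the call of Cd79b was lost without any 1 of the 2-week replicates (adjusted p up to 0.0852, edgeR), and without 65-week replicate 3 it was 8 with 5 that fell and a median of 0.64. No gene of the list was at 0 in any library. Of 9 plasmacytoid dendritic cell genes, another lineage that uses Bcl11a, 4 rose and 1 fell in females and 2 rose and 3 fell in males. In females 2 fell without 65-week replicate 3. In males 4 rose and 2 fell without 65-week replicate 2, and 1 fell without any 1 of the 2-week replicates. Of 10 stem and progenitor genes 3 rose and 4 fell in females and 1 rose and 5 fell in males, against the same shares of all genes. In males 2 rose without 65-week replicate 2, and 3 fell without 2-week replicate 1 or 3. Cd34, a sialomucin of progenitors and endothelium, had log2 fold changes of -2.77 and -3.90. Kit, the stem cell factor receptor, rose by 0.78 and 0.62, and Hlf, a stem cell transcription factor, rose by 1.30 in females (adjusted p = 0.00104, edgeR) and stood at 0.50 in males (adjusted p = 0.346, edgeR). The part of these cells in the rise of Bcl11a was not tested.

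Other lists were compared by age as well. All 13 endothelial genes fell in both sexes (medians -4.19 and -4.45), where 29.5% and 28.5% of all genes did. Of 12 genes of erythroblastic island macrophages 10 rose in females, and 3 rose and 1 fell in males (medians 0.80 and 0.51). Of all genes 30.2% rose in females and 27.0% in males, so the risen count in males is near the background. The summed level of these macrophage genes overlapped between ages, 3934 to 7320 CPM and 4916 to 6852 CPM. In males 1 rose without 65-week replicate 1, 2 rose without 2-week replicate 2 or 65-week replicate 3, and 2 rose and 2 fell without 2-week replicate 3. Of 9 neutrophil genes 8 rose in females and 9 in males, against 30.2% and 27.0% of all genes, from 4031 to 6332 CPM summed at 2 weeks to 11959 to 25977 CPM at 65 weeks. The summed level of the membrane genes ran from 8148 to 16168 CPM at 2 weeks and from 11353 to 18786 CPM at 65 weeks. What part these cells have in the globin values was not tested.

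**Figure D4:**
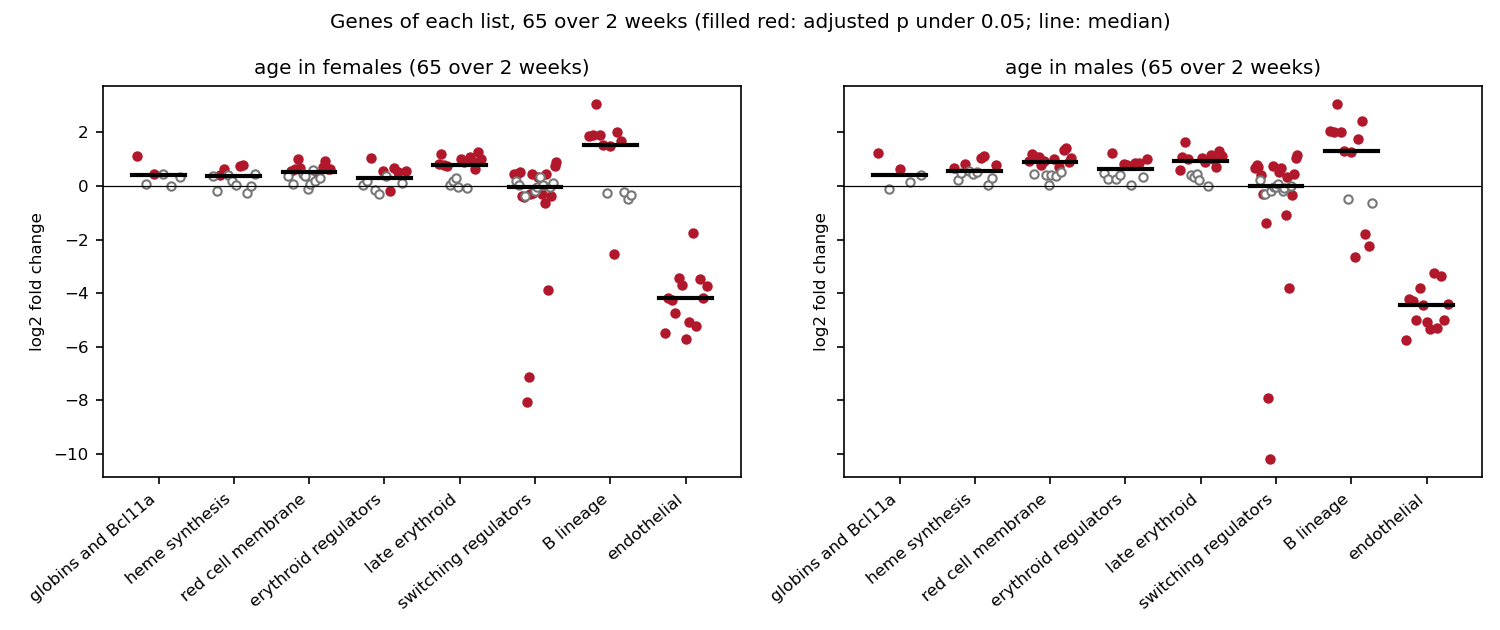
Log2 fold change of the genes of each list, 65 over 2 weeks, in females (left) and males (right). Points are genes, red filled where the adjusted p was under 0.05 by edgeR, and black lines are medians. The erythroid lists lie above 0 in their median, the switching regulators spread to both sides with Igf2bp1 and Igf2bp3 far below, B lineage genes lie mostly above and endothelial genes far below.

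Between the sexes the erythroid lists leaned the way of the globins at 2 weeks, and so did some other lists. All 18 membrane genes, 12 heme genes and 12 regulators lay lower in young males than in young females, with medians of -0.39, -0.29 and -0.34, and the lowest adjusted p among them was 0.227 (edgeR). Without female 2-week replicate 3 the medians were -0.21, -0.10 and -0.14, with 18, 11 and 12 genes lower in males. Without male 2-week replicate 1 they were -0.28, -0.16 and -0.23, and without female replicate 2 or male replicate 2 they were larger, down to -0.56 for the membrane genes. At 65 weeks the medians were -0.10, 0.007 and 0.041. Of the 16 genes of late red cell maturation, 15 lay lower in young males, with a median of -0.24 (-0.38 to -0.08 without 1 library). Their median at 65 weeks was -0.15. All 9 neutrophil genes (median -0.52) and 12 of 13 B lineage genes (-0.35) also lay lower in young males. So did 8 of 9 plasmacytoid dendritic cell genes (-0.049). All 13 endothelial genes (0.33), all 12 island macrophage genes (0.45) and 8 of 10 progenitor genes (0.12) lay higher in young males. None of these was called by edgeR, and the median of all genes tested at 2 weeks was 0.011.

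The profiles most like those of the members were found among 9649 genes with a mean of at least 10 CPM, by the root mean square difference of log2(CPM + 1) about each gene's own mean over the 12 libraries. Nearest to Hbb-bs were Slc2a4 (0.078), Mpp2 (0.089), Samd14 (0.090), Cks2 (0.096) and Gypc (0.101), where the median of all genes was 0.369. Gypc is a protein of the red cell membrane and Slc2a4 an insulin-responsive glucose transporter. Nearest to Hba-a1 were Gstt1 (0.257), Faap24 (0.262), Hbb-bs (0.273), Mpp2 (0.281) and Slc2a4 (0.281), with a median of 0.484. Nearest to Bcl11a were Runx3 (0.110), Pim2 (0.123), Plcg2 (0.132), Phf3 (0.134) and Nipbl (0.138), with a median of 0.612. Runx3 is a transcription factor and Plcg2 a phospholipase of immune cells. These are likenesses over 12 libraries that share sex and age, given without a test.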

How the data were processed

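BECs of 4 groups of 3 mouse libraries (females and males, 2 and 65 weeks) were sequenced with paired reads of 100 nt from a total RNA kit, while the label of the molecule names polyadenylated RNA. The label describes sorting straight into lysis buffer, and the study's methods describe endomucin-coated beads after red cell lysis and a choice of samples by RNA quality. The authors deposited raw counts per gene, with no normalisation. The study's methods name STAR, GRCm39 and featureCounts, whereas the submitters' processing notes list TopHat2, HTSeq and mm9, and this was not resolved. Annotation release, strandedness and the treatment of multi-mapping reads are not given in the sources used here. Of 37620 Ensembl IDs, 31052 with 99.29% of the counts were found in GENCODE M39, which gave names and GRCm39 positions.

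The count test was edgeR's quasi-likelihood F test (version 4.0.16, R 4.3.3). Low genes were dropped by filterByExpr (minimum count 10), libraries were scaled by TMM, and p-values were adjusted over every gene tested by Benjamini-Hochberg, with a threshold of 0.05. Each fit held the 6 libraries of a comparison, and the interaction all 12. The SE of a log2 fold change is its size over the square root of F. Where a group was at 0, 3 counts were taken as the floor, which covers counting error only. Molecular identifiers are not mentioned, so counts need not be independent molecules. The alternatives were DESeq2 1.42.0, other scalings and filters, summed copies, a replicate block, all 12 libraries in 1 model and leaving out each library. Counts and named genes of the gene lists without each library were added after seeing the data. No batch is given in the labels.

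The members and the gene lists were chosen with earlier results of these data known. All 9 members were to be named, with up to 4 genes of each other list by mean CPM and the 5 genes most like Hbb-bs, Hba-a1 and Bcl11a, and others are marked as chosen after their values were seen. A gene of the membrane list and a gene of the progenitor list that this rule names are not reported here. Promoter sequences were those of RefSeq (GRCm38.p6 table). Hbb-bh1 was not among them. The script was tested on simulated counts.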

Additional observations from a re-analysis of the deposited data

How the results depend on the processing

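Bcl11a stayed called by age under all 15 alternatives in each sex (log2 fold change 0.97 to 1.17 in females and 1.01 to 1.40 in males), and Hbb-bs and Hba-a1 were called under none. Hba-a2 was called in 7 of 14 alternatives in females and 9 of 14 in males, and Hbb-bt in 2 and 1. The members called by age fell from 2 to 1 in both sexes with library totals alone, which moved the median of all genes by -0.135 and -0.115. With the copies summed they also numbered 1, but Hba-a2 was then part of the alpha pair and was not tested by itself. In females they fell to 1 with all 12 libraries in 1 model and with the replicate block. Leaving out 1 library gave 1 to 3 in each sex. The numbers do not pair the libraries (correlation of deviations -0.355 to 0.14, over 0.1 in 1 of 18 pairs). With library totals alone Hba-a2 had an adjusted p of 0.067 in females and 0.0749 in males (edgeR). Under the replicate block it had an adjusted p of 0.0569 in females (edgeR), and Hbb-bs by age in females turned to 0.030. With library totals alone Hba-a1 by age in females turned to -0.068. No low count filter moved the median of all genes in males by -0.112.

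Genes called between sexes at 2 weeks numbered 447 with DESeq2 and 8 with all 12 libraries, against 5, and 5 to 11 without 1 library. At 65 weeks they numbered 398 with DESeq2, 10 with library totals alone, 105 with no filter and 254 with all 12 libraries, against 6, and 5 to 825 without 1 library, the most without male replicate 3. In the interaction they numbered 394 with DESeq2, 7 with no filter and 0 with the block (edgeR, 1491 genes with an unadjusted p under 0.05), against 1, and 0 to 750 without 1 library, the most again without that replicate. No member was among the calls in any of these.

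Signs that turned without 1 library, none of them past the threshold, are given as ranges. By age they were -0.138 to 0.277 (Hba-a1) and -0.231 to 0.175 (Hbb-bs) in females, and -0.512 to 0.067 and -0.001 to 0.295 in males. By sex at 65 weeks they were -0.209 to 0.082 (Hbb-bs), -0.202 to 0.071 (Hbb-bt) and -0.741 to 0.378 (Hbb-y). In the interaction they were -0.570 to 0.014 (Hba-a1), -0.093 to 0.353 (Hbb-bs), -0.074 to 0.278 (Hbb-bt), -2.25 to 0.204 (Hbb-bh1), -0.769 to 0.355 (Hbb-y) and -0.047 to 0.297 (Bcl11a). Except where named, the cause was not tested.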
